A study of Homo sapiens with 12 samples.

Results

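The comparison described here is that of an antibody against LAG3, given with an isotype control antibody, with isotype control alone, in a co-culture of 2 human cell lines. Its members are 6 of the 12 libraries of the study, 3 with anti-LAG3 plus isotype and 3 with isotype plus isotype. Each arm has 1 library at 1, 0.1 and 0.01 µg/ml, and libraries were matched by dose. The cultures held Jurkat, a T cell leukaemia line labelled JurkatLAG3+PD1+, and Raji-PDL1, a Burkitt lymphoma B cell line labelled for PDL1, the ligand of PD1. All 6 cultures carried the same load of SED (100 ng/ml) on the Raji cells and were collected after 24 hours. SED is the usual short name of staphylococcal enterotoxin D, a superantigen. The antibody is named MK4280. Both lines were kept under drug selection (puromycin, and geneticin as well for the Jurkat line), and the cells of several wells were pooled into 1 pellet per condition. The dilution series is described as starting at 10 µg/ml, a dose that is not among these libraries. The other 6 libraries had anti-PD1 (MK3475) or both antibodies. They entered the gene filter, the scaling and the model, where they helped to estimate the spread and the shared effect of dose. The labels name polyA RNA as the molecule, while the extraction is described as that of total RNA.

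LAG3 is an inhibitory receptor of activated T cells whose main ligand is MHC class II on antigen-presenting cells. A superantigen links MHC class II on the B cell to the T cell receptor (TCR) of the T cell, so that LAG3 on the Jurkat surface and class II on the Raji surface meet at the same contact. TCR signalling switches on early genes such as the EGR transcription factors and CD69 through the MAP kinase and calcium pathways, and blocking an inhibitory receptor is done to release that signal.

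The libraries held 25187375 to 31651624 counts with anti-LAG3 and 26457020 to 36581754 with isotype. Levels are given as CPM, counts scaled to library size with the TMM method. Of 19 defining T cell markers, 18 were at 10 CPM or more in all 6 libraries. The exception was LAT, a TCR adaptor, with 0.373 CPM in the lowest library and a median of 0.563. All 14 defining B cell markers were above that level. Markers of other cells were at or near 0 for CD14, LYZ, MPO and EPCAM, with 1.74 CPM for NCAM1, 8.08 for COL1A1 and 40.7 for PECAM1 as medians of the 6 libraries.

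With anti-LAG3, 758 genes were higher and 802 were lower than with isotype, 1560 of 15535 genes tested (10.0%, with 4.88% higher and 5.16% lower). The test was edgeR's quasi-likelihood test of the arm means, with dose as a factor and an adjusted p under 0.05. The changes were small. The median log2 difference was 0.23 among genes called higher and -0.24 among those called lower, and 124 called genes differed by 0.5 or more, 23 upward and 101 downward. Against a fold change of 1.2, edgeR's test called 0 genes, with 604 at an unadjusted p under 0.05. In 734 of the 758 genes called higher, all 3 anti-LAG3 libraries lay above all 3 isotype libraries, as they did in 14.7% of all genes tested. In 739 of the 802 called lower, all 3 lay below, as in 14.2% of all genes tested. The count depends on single libraries. It was 436 without the isotype library at 0.1 µg/ml, 474 without the anti-LAG3 library at 0.1 µg/ml, 674 without the anti-LAG3 library at 1 µg/ml and 779 without the isotype library at 0.01 µg/ml. Without both libraries at 0.1 µg/ml it was 132. In all 6 fits that left out 1 library, 290 genes were called each time and in the same direction. Of the 106 called genes that the naming rule picked, 47 were. The rest lost their call when at least 1 library was dropped. At 0.1 µg/ml, dropping the isotype library cost 49 calls and dropping the anti-LAG3 library 44. At 1 µg/ml the losses were 13 and 42, and at 0.01 µg/ml 35 and 23, in the same order. Among them are PDCD1, JUNB, ZFP36L1, LTB, CD247, EBF1, PAX5, CIITA, RFXANK, TAP1, TAPBP, CD38, ICAM1, BIRC3, SQSTM1, RPS3, MT-ND4, MT-ND6, FDFT1, PFKFB4, PGAM1, PFKP, ALDOC, HIST3H2A, TK1, CDKN2C, BAD and MDM2, all described below. They also include TSPAN5, BOLA1, CD1C, TMEM132A, CRYL1, IKZF3, SPEN, MT-TF, ZNF8, PRRC2C, SYNE2, BSN and SNHG1.

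A second test asked which genes had a difference between arms that changed with dose, as the slope of the difference in log2 units per 10-fold step of dose. It called 11 genes (0.0708% of those tested), 9 with a difference that grew with dose (0.0579%) and 2 with one that shrank or turned over (0.0129%). None of the 11 was called by arm mean in the model with dose as a factor. Of the 11, 6 belong to a list of 50 tested TCR-induced early genes: EGR1, EGR3, CD69, IER3, DUSP2 and CRTAM. That is 12% of the list. Apart from EGR1 and CD69, the 11 genes were chosen for naming after their values were seen. The list was also drawn up with earlier results of these data known, so the overlap is not independent of them.

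EGR1 encodes a zinc finger transcription factor that is among the first genes transcribed after TCR engagement. It lies on chromosome 5 at 138465490 to 138469315 of GRCh38 (plus strand). The 250 bases before its RefSeq start (GRCh38.p14, chr5:138465229-138465478, plus strand) are shown because EGR1 had the smallest p of the dose test, with the CArG boxes in capitals, the element that serum response factor binds.
EGR1: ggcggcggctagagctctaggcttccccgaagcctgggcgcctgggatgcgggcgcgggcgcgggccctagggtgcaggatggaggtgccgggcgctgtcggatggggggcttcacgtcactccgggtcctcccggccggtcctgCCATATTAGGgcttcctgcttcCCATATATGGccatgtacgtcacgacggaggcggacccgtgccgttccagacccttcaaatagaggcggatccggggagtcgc
The boxes begin 105 and 83 bases before the start. The element reads the same on both strands, so 1 search covers both. It was found in the 250 bases before the start of 407 of 35116 RefSeq promoter entries (1.16%), and in 3 of the 38 early genes with an entry, EGR1, EGR2 and IL2RA.

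From the highest to the lowest dose EGR1 was at 52.1, 31.6 and 16.7 CPM with anti-LAG3, and the isotype libraries held 18.2, 16.9 and 18.6 CPM. It was 2.85-fold higher at 1 µg/ml and 1.87-fold higher at 0.1 µg/ml, and at the lowest dose the anti-LAG3 library was slightly under the isotype library. The slope of the difference was 0.82 ± 0.08 (SE; adjusted p = 2.74e-06), and EGR1 was the 1 gene called in each of the 6 fits without 1 library (highest adjusted p = 0.0333). By arm mean, which counts such a dose response as spread, its difference was 0.78 ± 0.37 and did not pass (adjusted p = 0.261).

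CD69, an early surface marker of lymphocyte activation, was at 28.1, 19.5 and 12.1 CPM with anti-LAG3 in the same order, and at 11.2, 13.5 and 12.2 CPM with isotype. The slope of the difference was 0.66 ± 0.09 (adjusted p = 0.00111), while the arm mean difference of 0.62 ± 0.35 did not pass (adjusted p = 0.348). IER3, an immediate early gene, was at 23.7, 12.9 and 8.68 CPM against 8.97, 9.02 and 8.61 CPM (slope 0.71 ± 0.11, adjusted p = 0.00259). The arms were close for all 3 genes at 0.01 µg/ml and apart at 1 µg/ml.

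EGR3, a relative of EGR1, was at 10.7, 4.27 and 1.85 CPM with anti-LAG3 and at 2.04, 1.98 and 1.92 CPM with isotype (slope 1.23 ± 0.19, adjusted p = 0.00259). CRTAM, an adhesion receptor of activated T cells, was low throughout, at 2.6, 0.959 and 0.377 CPM against 0.363, 0.41 and 0.651 CPM (slope 1.82 ± 0.35, adjusted p = 0.0331). DUSP2, a phosphatase that dampens MAP kinase signalling, was at 153, 125 and 108 CPM against 80.2, 95.5 and 89.4 CPM (slope 0.33 ± 0.06, adjusted p = 0.0129). DUSP2 differs from the others in that its anti-LAG3 libraries all lay above the isotype libraries, including the one at the lowest dose.

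**Figure D1:**
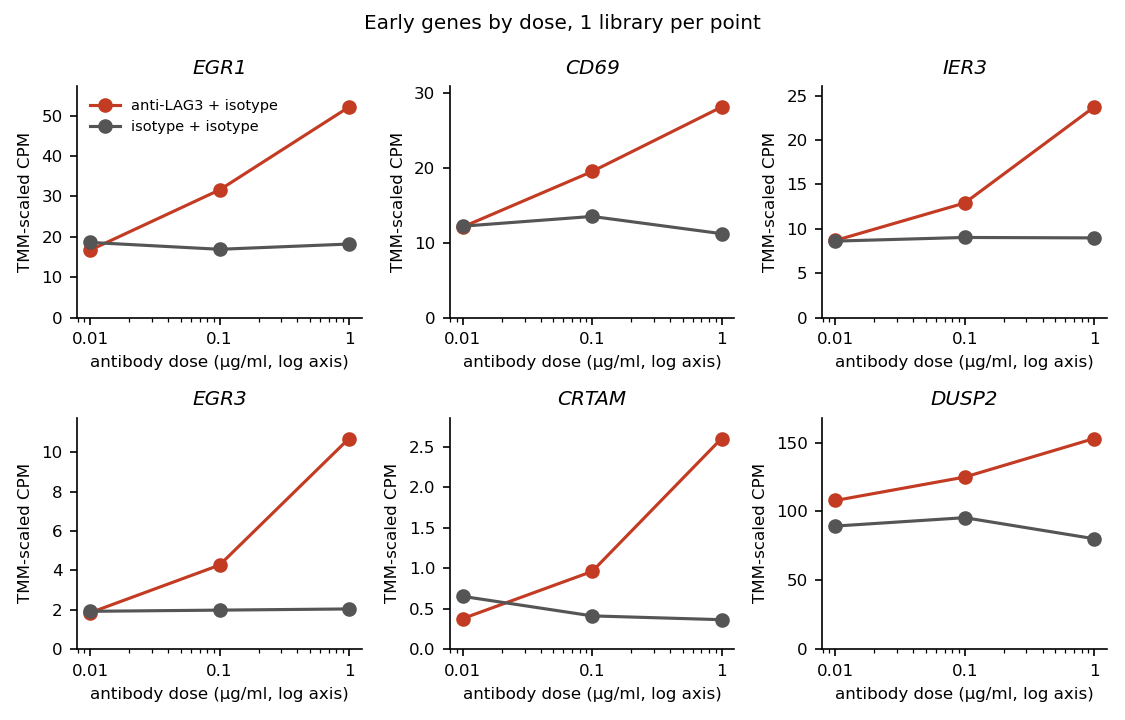
TMM-scaled CPM (linear axis from 0) of the 6 early genes called by the dose slope, against antibody dose on a log axis, with 1 library per point and no error bar. Anti-LAG3 (red) and isotype (grey) meet at 0.01 µg/ml for EGR1, CD69, IER3 and EGR3 and part toward 1 µg/ml, where EGR1 reached 52.1 CPM against 18.2 CPM.

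The other 3 genes with a difference that grew with dose were CASC15, a long noncoding RNA, TRBV12-3, the V segment of the Jurkat TCR beta chain, and PRKCH, a protein kinase C. PRKCH was at 64.7, 50.9 and 44.3 CPM with anti-LAG3 against 45.7, 43 and 47.9 CPM with isotype (slope 0.31 ± 0.06, adjusted p = 0.0314). CASC15 was 1.56-fold and TRBV12-3 1.59-fold higher at 1 µg/ml. The 2 genes that went the other way were PPDPF and MAZ. PPDPF was at 97.1, 71.6 and 62.5 CPM in the isotype series from the highest to the lowest dose, and at 75.1, 80.4 and 79.5 CPM with anti-LAG3. Without the anti-LAG3 library at 1 µg/ml, 1 gene was called by slope, EGR1, and likewise without the isotype library at 1 µg/ml. The count was 17 without the anti-LAG3 library at 0.1 µg/ml. The balance of directions also depended on the fit. It was 23 that grew and 20 that shrank in the 6 libraries alone, 21 and 29 with the T and B marker balance as a covariate, 3 and 5 without the anti-LAG3 library at 0.01 µg/ml, and 5 and 8 without the isotype library at that dose.

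By arm mean the early gene list, with the 6 genes called by slope included, had few calls. Of its 50 tested members (4% called, under the 10.0% of all genes), 1 rose (JUNB, an AP-1 subunit, 0.16 ± 0.05, adjusted p = 0.0338) and 1 fell (ZFP36L1, an mRNA decay factor, -0.18 ± 0.05, adjusted p = 0.0263). Both calls were lost with GC content and length offsets (adjusted p = 0.616 and 0.056). The median difference of the list was 0.14, against 0.00 over all genes tested, and it was 0.19, 0.07 and 0.04 at 1, 0.1 and 0.01 µg/ml. At 1 µg/ml 14 of the 50 genes (28%) were at least 1.5-fold higher with anti-LAG3, against 4.01% of all genes tested. The 6 genes called by slope are among these 14. At 0.1 µg/ml there were 6 (12%, against 3.58%) and at 0.01 µg/ml 1 (2%, against 3.28%). These single-dose values compare 1 library with 1 and carry no test, and the list was chosen with earlier results of these data known. NR4A1, a nuclear receptor induced by TCR signals, was at 24.5 CPM with anti-LAG3 at 1 µg/ml and at 9.35 and 8.26 CPM at the lower doses. The isotype libraries held 6.6, 8.31 and 8.29 CPM. NR4A1 was called neither by arm mean (adjusted p = 0.474) nor by slope (adjusted p = 0.264). FOS, an AP-1 subunit, was at 3.39, 1.44 and 0.981 CPM against 1.01, 0.895 and 0.905 CPM, with an arm mean difference just outside the threshold (1.00, adjusted p = 0.0531). MYC was at 325 to 351 CPM with anti-LAG3 and 334 to 365 CPM with isotype, and did not pass (adjusted p = 0.557). NR4A1, FOS and MYC are examples from outside the naming rule. The arm mean difference was positive in 37 of the 50 genes and negative in 13. Among the latter were TNFRSF9 (-0.37, adjusted p = 0.314) and IRF4 (-0.20, adjusted p = 0.0864), neither called.

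The targets of the antibodies were read next. LAG3 itself (chromosome 12, 6772512 to 6778455) had 0 counts in each anti-LAG3 library and 2, 1 and 1 counts in the isotype libraries from the highest to the lowest dose, so the label LAG3+ is not seen in the counts of this gene. Whether the LAG3 sequence carried by the Jurkat line matches the annotated gene is not given in the labels, so these counts do not measure it with certainty. A count of 0 allows up to 3 counts, which is 0.0948, 0.119 and 0.114 CPM in the 3 anti-LAG3 libraries, counting error only. PDCD1, the gene of PD1, was at 228, 218 and 227 CPM with anti-LAG3 and at 218, 191 and 179 CPM with isotype from the highest to the lowest dose. The groups touch at 218 CPM, and the arm mean difference was 0.20 ± 0.05 (adjusted p = 0.0254). With offsets for GC content and gene length it was 0.07 (adjusted p = 0.44). CD274, the gene of PDL1, was at 82.7, 81.1 and 90.2 CPM against 88.5, 93.4 and 93.3 CPM and did not pass (adjusted p = 0.211). IL2 and IFNG, the cytokines most often read in such assays, had 0 to 3 counts per library, so no change in either was detectable at this depth. Of 19 tested cytokines and chemokines, 2 rose and 0 fell (10.5% called, near the 10.0% of all genes tested). The 2 were IL32 (0.32 ± 0.06, adjusted p = 0.00307) and LTB (0.18 ± 0.05, adjusted p = 0.0183).

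Of 33 tested T cell markers 6 rose and 0 fell (18.2% called, against 10.0% of all genes tested), with a median difference of 0.18. SIT1, a transmembrane adaptor of the TCR pathway, was at 102, 95.1 and 91.3 CPM with anti-LAG3 against 79.7, 75 and 73.5 CPM with isotype (0.34 ± 0.05, adjusted p = 5.79e-04), with no overlap of the groups. LCK, the kinase that starts TCR signalling, was at 355, 349 and 342 CPM against 317, 276 and 272 CPM (0.27 ± 0.05, adjusted p = 0.00264). ZAP70, the kinase downstream of it, rose by 0.27 ± 0.05 (adjusted p = 0.0032), and TRBC1, a constant segment of the TCR beta chain, by 0.26 ± 0.05 (adjusted p = 0.00307). TRBC1 and TRBC2 are near-identical, so reads may be split between them. The wider list of 37 proximal TCR signalling genes, which shares SIT1, LCK and ZAP70, had 5 higher and 3 lower (21.6% called). CD247, the TCR zeta chain, was among those higher (0.27 ± 0.06, adjusted p = 0.00897).

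Of 34 tested B cell markers 1 rose and 5 fell (17.6% called, against 10.0% of all genes tested), with a median difference of -0.04. The difference was positive in 12 and negative in 22, and the median was -0.13, 0.01 and 0.00 at 1, 0.1 and 0.01 µg/ml. POU2F2, the B cell transcription factor OCT2, was at 87.6, 85.7 and 103 CPM with anti-LAG3 against 113, 124 and 126 CPM with isotype (-0.39 ± 0.07, adjusted p = 0.00198). EBF1 (-0.26 ± 0.06, adjusted p = 0.00848) and PAX5 (-0.20 ± 0.05, adjusted p = 0.0115), which specify the B lineage, also fell.

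The balance of the 2 marker sets, as the mean log2 CPM of the T cell markers minus that of the B cell markers, was -2.21, -2.19 and -2.27 in the anti-LAG3 libraries and -2.42, -2.43 and -2.41 in the isotype libraries. The groups did not overlap, and the mean difference was 0.197. In the other 6 libraries the balance ran from -2.45 to -2.30. More Jurkat cells and more RNA per Jurkat cell cannot be told apart in such a mixture, here or in any result below. With this balance as a covariate in the model, 84 genes were called (0.541% of those tested), 68 higher (0.438%) and 16 lower (0.103%). In that fit LCK differed by 0.19 (adjusted p = 0.398) and SIT1 by 0.48 (adjusted p = 0.0232). Both genes are among the T cell markers that make up the balance, so these values are not independent of the covariate. The balance and the arm coincide in these 6 libraries, so the fit can separate them only through the other 6.

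**Figure D2:**
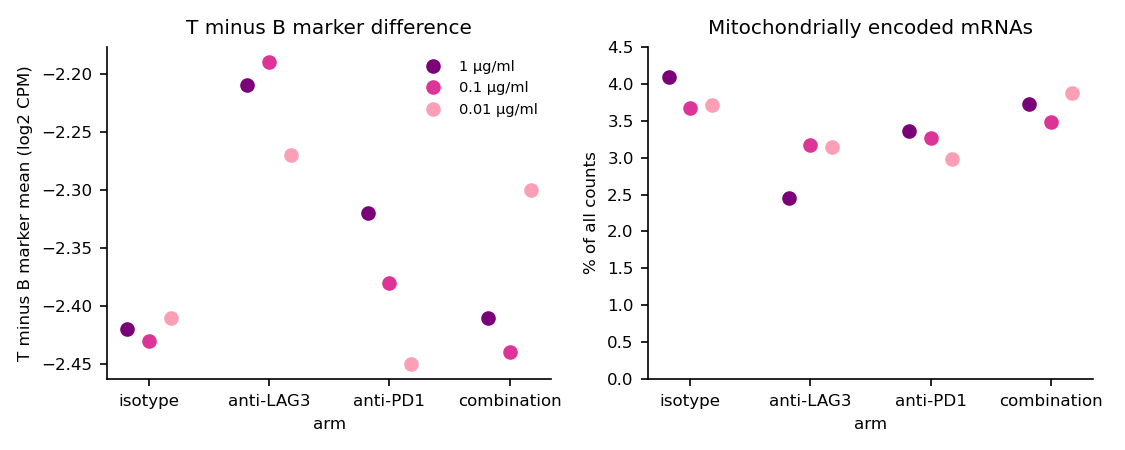
Left, mean log2 CPM of 33 T cell markers minus that of 34 B cell markers, and right, mitochondrially encoded mRNAs as a percentage of all counts, with 1 point per library, arms on the horizontal axis and doses as colours. The 3 anti-LAG3 libraries lie at -2.27 to -2.19 on the left, above all 9 others, and at 2.46% to 3.17% on the right, below the 3.68% to 4.09% of the isotype libraries.

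MHC class II is the ligand of LAG3. Of 20 tested genes of the class II pathway 1 rose and 1 fell (10% called, the share of all genes), the median difference was 0.01, and no class II chain was called. HLA-DRA was at 1204, 1197 and 1120 CPM with anti-LAG3 against 1321, 1099 and 1085 CPM with isotype. The gene that fell was CIITA, the master activator of class II transcription, at 152, 160 and 169 CPM against 179, 189 and 189 CPM (-0.21 ± 0.05, adjusted p = 0.00765). RFXANK, a subunit of the factor that binds class II promoters, rose by 0.18 ± 0.06 (adjusted p = 0.0405). Both calls were lost with GC content and length offsets (adjusted p = 0.0848 and 0.378). In the class I pathway 4 of 18 tested genes rose and 1 fell (27.8% called), with a median of 0.13. PSMB8, a subunit of the immunoproteasome, was at 163, 157 and 147 CPM against 128, 127 and 127 CPM (0.29 ± 0.05, adjusted p = 0.00106). TAP1, a subunit of the peptide transporter, rose by 0.21 ± 0.05 (adjusted p = 0.0128), while TAPBP, which holds class I molecules at that transporter, fell by 0.24 on the log2 scale (SE 0.06, adjusted p = 0.0221). With GC content and length offsets 2 class I genes rose and 1 fell, and TAP1 lost its call (adjusted p = 0.0835). PSMB8 and TAP1 each overlap PSMB9 on the other strand, so unstranded counting could mix their reads.

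The share called was near that of all genes in the interferon, NF-kB and B cell activation lists. Among interferon-response genes 3 of 48 rose and 2 fell (10.4% called). ISG15, a ubiquitin-like interferon-induced protein, was at 60.5, 63.8 and 61.6 CPM against 49.4, 47.6 and 47.3 CPM (0.36 ± 0.05, adjusted p = 4.67e-04). BST2 (tetherin) rose by 0.27 ± 0.05 (adjusted p = 0.00238) and IFI6 by 0.43 ± 0.09 (adjusted p = 0.00345), while IFI16, a DNA sensor, fell by 0.21 on the log2 scale (SE 0.04, adjusted p = 0.00326). Among 33 targets of NF-kB, SQSTM1 rose and 3 genes fell (12.1% called): REL, ICAM1 and BIRC3. REL, an NF-kB subunit, was at 61.9, 63.2 and 65.9 CPM against 76.3, 84 and 86.3 CPM (-0.37 ± 0.07, adjusted p = 0.00504). In B cell activation 0 of 32 rose and 4 fell (12.5% called), among them CD38 (-0.20 ± 0.05, adjusted p = 0.0157) and ICAM1 (-0.20 ± 0.05, adjusted p = 0.00869). No heat shock gene of 16 was called, with DNAJB1 nearest (0.14 ± 0.05, adjusted p = 0.0719).

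Of 79 tested ribosomal protein genes 24 rose and 0 fell (30.4% called, against 10.0% of all genes tested). The difference was positive in 74 of the 79, and the median of the 79 was 0.13. Together they took 10.9%, 10.7% and 10.1% of counts with anti-LAG3 against 10.1%, 9.46% and 9.32% with isotype, so that the groups met at 10.1%. Their start sites are shown because vertebrate ribosomal protein mRNAs typically begin in a run of pyrimidines, the mark of a shared translational control. The 15 bases on either side of the RefSeq start (GRCh38.p14) follow for 3 members that rose, with the longest run of C and T in capitals. The run of RPS15 begins after the start and is cut by the end of the window at 7 bases, under the minimum of 8 counted below.
RPS15: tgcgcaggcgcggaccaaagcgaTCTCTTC
RPS9: gtggcgcttccgcgCCTCTTTCTCagtgac
RPS3: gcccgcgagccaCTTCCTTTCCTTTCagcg
They lie at chr19:1438381-1438410, chr19:54200843-54200872 and chr11:75399503-75399532, all on the plus strand. A run of at least 8 such bases on the gene's strand was in this window for 52 of 63 tested ribosomal protein genes with an entry (82.5%) and for 1890 of 10137 tested genes with one (18.6%). The runs belong to the family as a whole, and whether members with a run were those that rose was not tested.

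RPS15 was at 948, 1006 and 928 CPM with anti-LAG3 against 813, 781 and 741 CPM with isotype (0.30 ± 0.05, adjusted p = 7.76e-04). RPS9 (0.27 ± 0.05, adjusted p = 0.00264) and RPS3 (0.27 ± 0.06, adjusted p = 0.00445) rose by similar amounts. Ribosomal protein genes have many processed pseudogenes, so their counts are uncertain where reads map to several places. With GC content and length offsets 20 rose and 0 fell, and with the marker balance as a covariate 2 rose.

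The nuclear and mitochondrial genomes each encode part of the respiratory chain, and the genes called in the 2 parts went in opposite directions. Of 75 tested nuclear respiratory chain subunits 21 rose and 0 fell (28% called, against 10.0% of all genes tested), with a median of 0.12. CYC1, the cytochrome c1 of complex III, was at 305, 306 and 292 CPM against 255, 252 and 255 CPM (0.24 ± 0.05, adjusted p = 0.00264), and UQCRC1, a core subunit of the same complex, rose by 0.22 ± 0.04 (adjusted p = 0.00307). With GC content and length offsets 17 subunits rose and 0 fell, though CYC1 and UQCRC1 were not among those called (adjusted p = 0.14 and 0.0844). In the fit with the marker balance as a covariate 2 subunits rose and 0 fell. All 13 mitochondrially encoded mRNAs had a negative difference, 3 fell (23.1% called), and the median was -0.43. MT-ND5 was at 1441, 1859 and 1949 CPM with anti-LAG3 against 2810, 2604 and 2648 CPM with isotype (-0.62 ± 0.11, adjusted p = 0.0128). MT-ND6 (-0.60 ± 0.11, adjusted p = 0.0148) and MT-ND4 (-0.51 ± 0.13, adjusted p = 0.0478), other complex I subunits, fell as well, while MT-CO1 was at 6442, 8374 and 8324 CPM against 10343, 9111 and 9452 CPM and did not pass (adjusted p = 0.0819). With the offsets the median of the 13 was -0.32 and 1 fell, MT-ND5, while MT-ND6 (adjusted p = 0.083) and MT-ND4 (adjusted p = 0.104) lost their calls. The median was -0.54 with the marker balance as a covariate, and 0 of the 13 were called. The gap was widest at 1 µg/ml, where the median was -0.79 and 12 of the 13 were at least 1.5-fold lower (3.96% of all genes tested), against -0.21 and -0.28 at the lower doses with 0 of 13 each. In total these mRNAs took 2.46%, 3.17% and 3.15% of counts with anti-LAG3 and 4.09%, 3.68% and 3.71% with isotype. The other 6 libraries held 2.98% to 3.87%.

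Histone mRNAs also differed most at 1 µg/ml, with 1 call. Of 45 tested replication-dependent histone genes 1 rose (HIST3H2A) and 0 fell (2.22% called, under the 10.0% of all genes). The median difference was -0.70 at 1 µg/ml, 0.00 at 0.1 µg/ml and 0.09 at 0.01 µg/ml. At 1 µg/ml 26 of the 45 were at least 1.5-fold lower with anti-LAG3, against 3.96% of all genes tested. At the lower doses there were 2 and 3 (7.26% and 5.91% of all genes tested). In the other direction 0, 4 and 9 of the 45 were at least 1.5-fold higher at 1, 0.1 and 0.01 µg/ml. The shares of all genes tested were 4.01%, 3.58% and 3.28%, so the histone genes were split at the lowest dose. Each of these values compares 1 library with 1.

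In cholesterol synthesis 9 of 29 rose and 0 fell (31% called, against 10.0% of all genes tested). The median was 0.10, with medians of 0.12, 0.13 and 0.11 at the 3 doses. FADS2, a fatty acid desaturase of the same sterol-regulated program, was at 374, 377 and 353 CPM against 327, 293 and 289 CPM (0.28 ± 0.05, adjusted p = 0.00186). FDPS, which makes farnesyl diphosphate, rose by 0.25 ± 0.05 (adjusted p = 0.0022), PMVK, a mevalonate pathway kinase, by 0.29 ± 0.05 (adjusted p = 0.00253) and FDFT1, squalene synthase, by 0.19 ± 0.04 (adjusted p = 0.00643). These 4 stayed called with GC content and length offsets, and in that fit 5 members of the list rose. In the fit with the marker balance as a covariate 0 of the 29 were called. In glycolysis 4 of 25 rose and 0 fell (16% called; PFKFB4, PGAM1, PFKP and ALDOC), by 0.15 to 0.33, and the calls of PGAM1, PFKP and ALDOC were lost with the offsets (adjusted p = 0.102, 0.173 and 0.229).

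**Figure D3:**
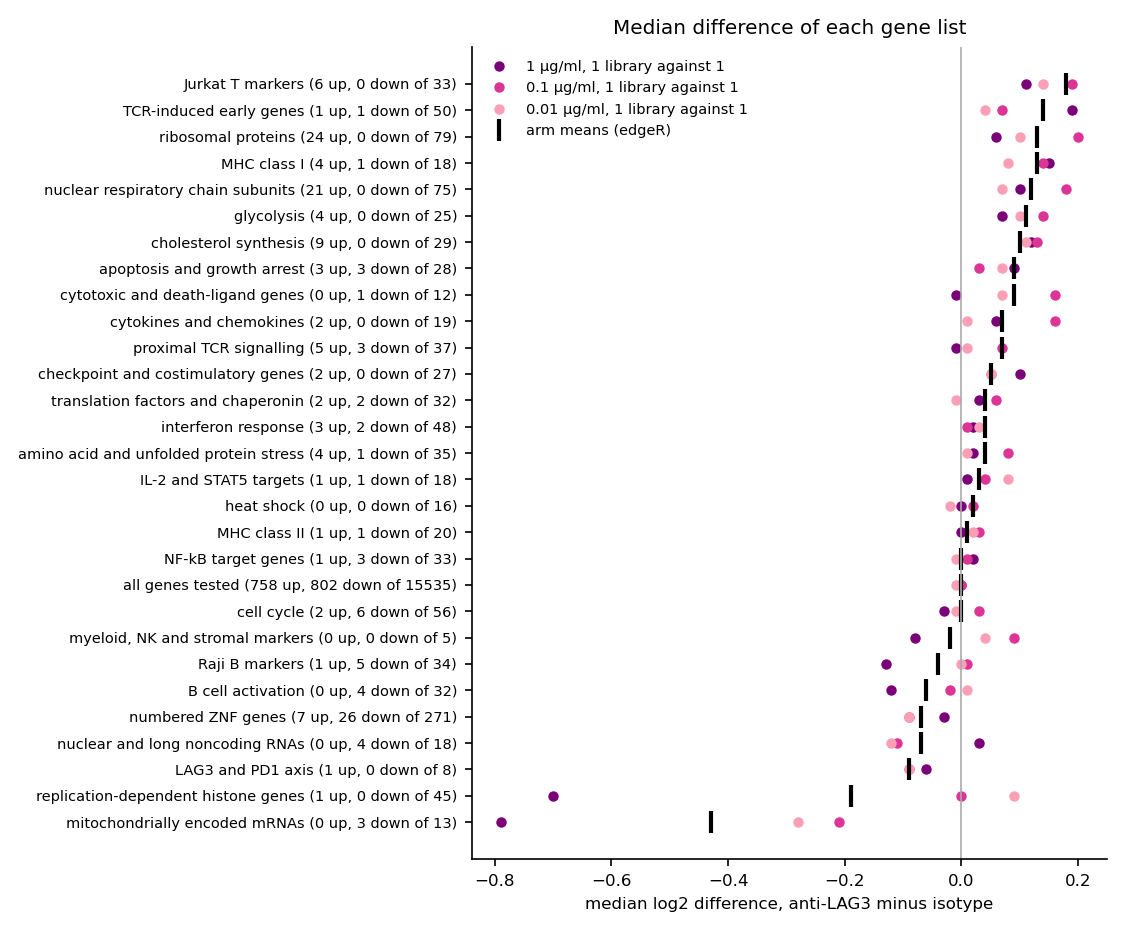
Median log2 difference of each gene list, anti-LAG3 minus isotype, from arm means (black bars) and from single libraries at each dose (coloured points), with the numbers called higher and lower beside each name. Ribosomal proteins and nuclear respiratory subunits lie to the right at each dose, and mitochondrially encoded mRNAs to the left, farthest at 1 µg/ml (-0.79).

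In the cell cycle list 2 of 56 rose and 6 fell (14.3% called, against 10.0% of all genes tested), with a median of 0.00. MKI67, the gene of the proliferation antigen Ki-67 (chromosome 10, 128096659 to 128126385, minus strand), had the largest fall among called genes of at least 5 CPM on average with groups that do not overlap, clone-named genes aside. It was at 143, 121 and 178 CPM with anti-LAG3 against 255, 302 and 301 CPM with isotype, with no overlap (-0.95 ± 0.20, adjusted p = 0.0374). The call was lost in each of the 6 fits without 1 library (highest adjusted p = 0.132) and with GC content and length offsets (adjusted p = 0.0582). The size of the difference stayed at -1.08 to -0.73 in the former and -0.83 in the latter. In the other 6 libraries MKI67 ran from 141 to 284 CPM, about the span of the 2 arms. CENPE, a mitotic kinesin, fell from 52.6 to 63.9 CPM with isotype to 41.9 to 46.6 CPM (-0.44 ± 0.07, adjusted p = 6.54e-04), and E2F8, a cell cycle repressor, by 0.34 on the log2 scale (SE 0.06, adjusted p = 0.00181). CDK4, a kinase of G1 phase, rose by 0.22 ± 0.04 (adjusted p = 0.00318) and TK1, thymidine kinase of S phase, by 0.22 ± 0.05 (adjusted p = 0.0123). Among apoptosis and growth arrest genes 3 of 28 rose and 3 fell (21.4% called), and none was called with the offsets. CDKN2C, an inhibitor of CDK4, rose by 0.20 ± 0.04 (adjusted p = 0.00527), BAD, which promotes cell death, by 0.34 ± 0.08 (adjusted p = 0.0115), and MDM2, the main negative regulator of p53, fell by 0.20 on the log2 scale (SE 0.04, adjusted p = 0.00546).

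The largest rises are given for called genes of at least 5 CPM on average whose groups do not overlap. TRAPPC5, a subunit of a vesicle tethering complex (chromosome 19, 7680843 to 7687703, plus strand), was at 12, 13.1 and 14.6 CPM with anti-LAG3 against 8.05, 8.13 and 8.61 CPM with isotype (0.68 ± 0.09, adjusted p = 4.67e-04). DPM3, which anchors dolichol-phosphate mannose synthase, was at 18.1, 15.8 and 14.9 CPM against 11.3, 10.1 and 10.5 CPM (0.62 ± 0.09, adjusted p = 5.01e-04). After these came TMEM238 (0.52), MRPL38 (0.51), TSPAN5 (0.50), IFI27L2 (0.50), BOLA1 (0.49), HES6 (0.48), CD1C (0.48), TMEM132A (0.48), CRYL1 (0.48) and ENDOG (0.47). MRPL38 is a protein of the mitochondrial ribosome and ENDOG a mitochondrial nuclease.

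By the same limits, the largest falls after MKI67 were LRRC37A4P, a pseudogene with near-identical copies (-0.84), and IKZF3, the lymphoid factor Aiolos (-0.75). SPEN, a large transcriptional corepressor, was at 98, 92.9 and 127 CPM against 151, 172 and 184 CPM (-0.67 ± 0.12, adjusted p = 0.0191). MT-TF, a mitochondrial tRNA (-0.66), ZNF8 (-0.64), PRRC2C (-0.64), MT-ND5, MDM4, a p53 inhibitor (-0.61), GOLGA4, a Golgi tether (-0.61), SYNE2, a giant nuclear envelope protein (-0.61), and BSN (-0.60) complete the 12. For these 24 genes 2 calls, those of MKI67 and MT-TF, were lost with GC content and length offsets, and 21 with the marker balance as a covariate.

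**Figure D4:**
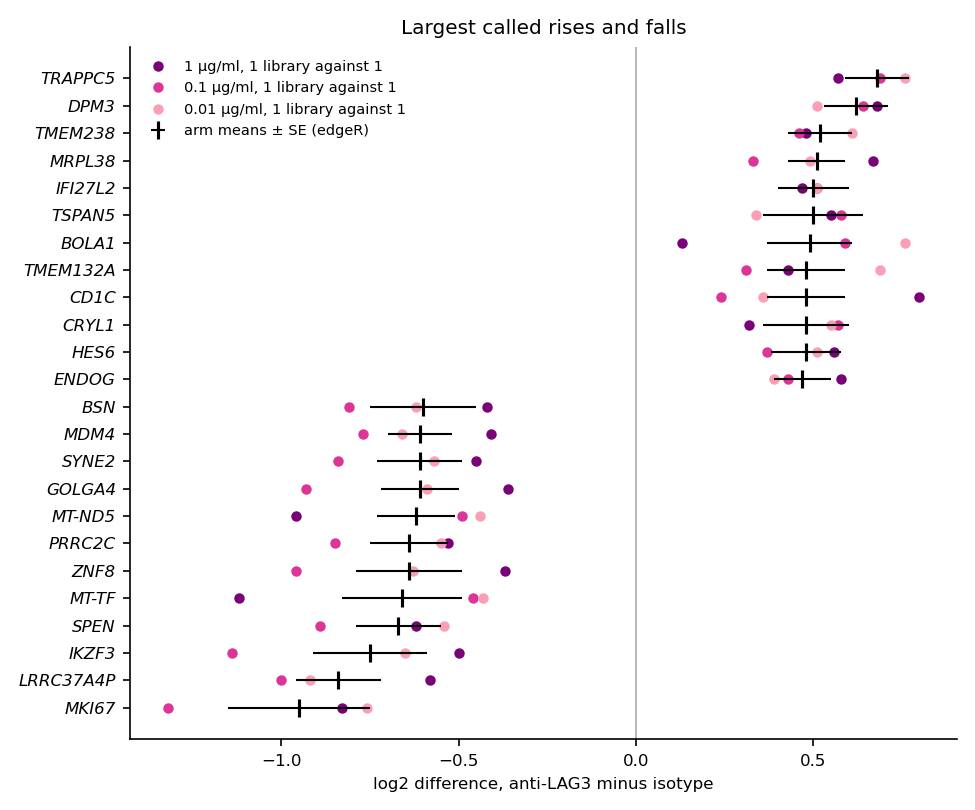
Log2 difference, anti-LAG3 minus isotype, of the 12 largest called rises and 12 largest called falls among genes of at least 5 CPM on average whose groups do not overlap. Black marks are arm means ± SE and coloured points single libraries matched by dose, from TRAPPC5 at 0.68 to MKI67 at -0.95, and in the 10 falls other than MT-ND5 and MT-TF the 0.1 µg/ml pair lies farthest from 0.

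The 6 genes of smallest p were 4 that rose and 2 that fell. MRPL41, another mitochondrial ribosome protein, was at 67.7, 71.2 and 65.3 CPM with anti-LAG3 against 50.9, 50.2 and 50.4 CPM with isotype (0.43 ± 0.05, adjusted p = 4.67e-04). HSPBP1, a cochaperone, was at 77.1, 76.2 and 76.8 CPM against 58.7, 59.8 and 60.2 CPM (0.36 ± 0.05, adjusted p = 4.67e-04). WNK1, a kinase of ion transport, was at 349, 348 and 385 CPM against 462, 458 and 464 CPM (-0.35 ± 0.05, adjusted p = 4.67e-04). SIVA1, an apoptosis regulator (0.37), LAGE3, a subunit of a tRNA-modifying complex (0.41), and NFAT5, the transcription factor of osmotic stress (-0.50), made up the rest. These 6 genes stayed called in each of the 6 fits without 1 library and with GC content and length offsets. With the marker balance as a covariate WNK1 lost its call (adjusted p = 0.089). The combination libraries, which also hold anti-LAG3, had means nearer isotype for these genes. SIVA1 averaged 115 CPM with anti-LAG3, 110 with anti-PD1, 86.4 with the combination and 89.4 with isotype. For WNK1 the means were 361, 400, 442 and 461 CPM. The reason was not tested.

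Of 271 numbered ZNF genes, which encode zinc finger proteins, 7 rose and 26 fell. The 12.2% called was near the 10.0% of all genes tested, and the median was -0.07. ZNF121 was at 21.7 CPM in all 3 anti-LAG3 libraries against 27.5, 33.9 and 28.4 CPM (-0.46 ± 0.07, adjusted p = 7.28e-04). Of 18 nuclear and long noncoding RNAs 0 rose and 4 fell (22.2% called). NEAT1, the RNA scaffold of paraspeckles, was at 8.98, 11.9 and 10.6 CPM against 11.9, 23.5 and 22.4 CPM (-0.84 ± 0.15, adjusted p = 0.00791), so that 1 isotype library, at 1 µg/ml, sat at the level of the anti-LAG3 libraries. The call was lost without the anti-LAG3 or without the isotype library at 0.1 µg/ml (highest adjusted p = 0.0625). KCNQ1OT1, an imprinted antisense RNA that overlaps KCNQ1, fell by 0.83 on the log2 scale (SE 0.16, adjusted p = 0.00264) but not with the offsets (-0.32, adjusted p = 0.237). The small nucleolar RNA host genes SNHG16 (-0.25 ± 0.05, adjusted p = 0.00451) and SNHG1 (-0.35 ± 0.10, adjusted p = 0.0431) were the other 2.

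The called genes were unevenly spread over gene length and base composition. In the shortest quartile of tested genes, with a median length of 1498 bp, 310 of 3885 rose and 42 fell, and in the longest quartile, with a median of 9142 bp, 54 of 3881 rose and 533 fell. In the quartile of highest transcript GC content, with a median of 60.6%, 469 of 3422 rose and 65 fell, and in the quartile of lowest GC content, with a median of 39.2%, 17 of 3422 rose and 348 fell. Among 893 genes that were both short and GC-rich 22.5% rose and 0.336% fell. Among 1356 that were both long and GC-poor 0.442% rose and 18% fell. The shift was in each dose. The median difference of the longest quartile was -0.05, -0.08 and -0.08 at 1, 0.1 and 0.01 µg/ml, and that of the highest GC quartile 0.07, 0.09 and 0.13.

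**Figure D5:**
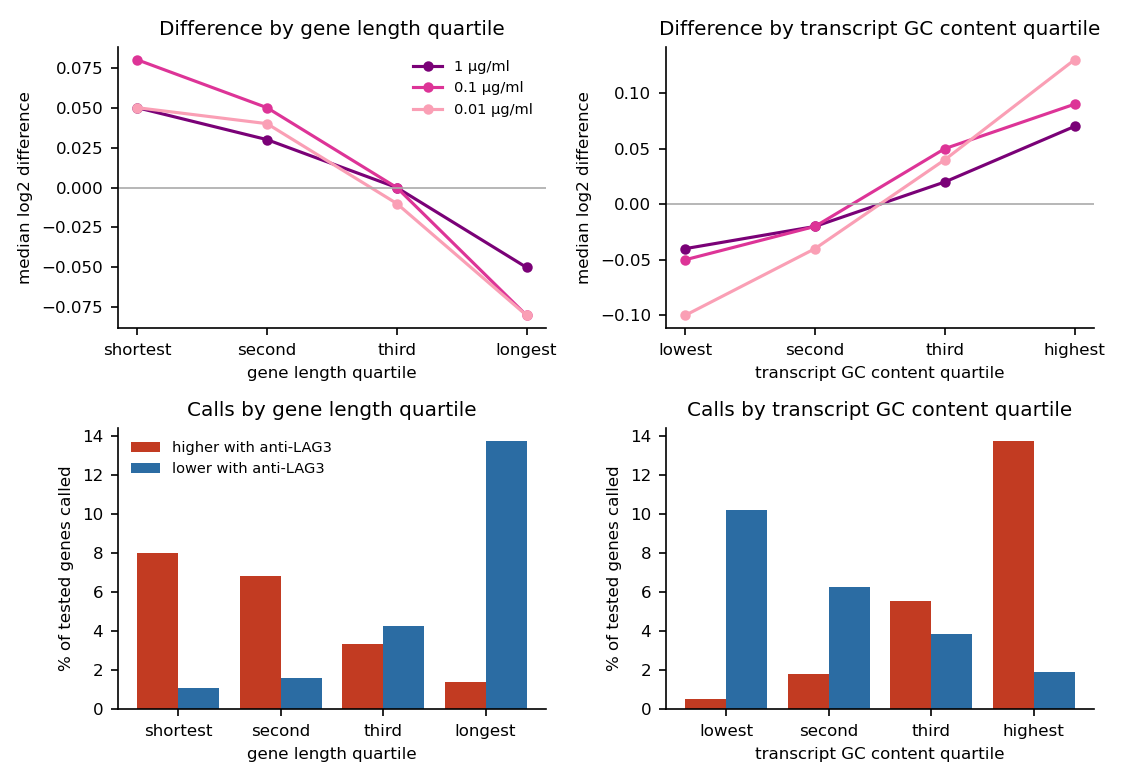
Median log2 difference (top, by dose) and percentage of tested genes called higher or lower (bottom) for quartiles of gene length (left) and of transcript GC content (right). Short and GC-rich genes were mostly called higher and long and GC-poor genes lower, 13.7% of the longest quartile being lower and 13.7% of the highest GC quartile higher.

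Measured per library against the isotype mean, the highest GC quartile exceeded the lowest by 0.13 to 0.21 in the anti-LAG3 libraries, by 0.08 to 0.24 in the anti-PD1 libraries and by 0.00 to 0.04 in the combination libraries, which also hold anti-LAG3. The isotype libraries ran from -0.01 to 0.02. With offsets for GC content and length in each library 877 genes were called (5.65% of those tested), 474 higher (3.05%) and 403 lower (2.59%). Of these, 650 were among the 1560, and none of the 650 changed direction. Among the genes described above, LTB, CD247, BIRC3, CD38, TK1, HIST3H2A and SNHG1 also lost their calls in this fit. The part of GC content and length in the arm difference was not tested beyond this fit.

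The authors' deposited tables compare each anti-LAG3 library with all 3 isotype libraries and so have no replicate of the treated condition. An adjusted p under 0.05 in the authors' deposited tables was given to 216 genes at 1 µg/ml (2.58% of those with an adjusted p), 186 at 0.1 µg/ml (2.84%) and 10 at 0.01 µg/ml (0.195%). EGR1 had a log2 fold change of 1.54 (SE 0.14, adjusted p = 4.49e-26) at 1 µg/ml in the authors' deposited table, of 0.81 at 0.1 µg/ml and of -0.09 at 0.01 µg/ml. MKI67 was called at all 3 doses in the authors' deposited tables, between -1.24 at 0.1 µg/ml and -0.68 at 0.01 µg/ml (adjusted p = 4.84e-27 and 8.75e-07). MT-ND5 was likewise called at all 3 in the authors' deposited tables, at -0.90, -0.54 and -0.46.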

How the data were processed

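RNA of 12 co-cultures was sequenced, 1 library for each of 4 arms at 3 doses. The authors deposited raw read counts for 55782 gene symbols with a length in bp for each, and tables of log2 fold changes and p-values per treated library, which per the file headers set 1 library against 3 isotype libraries. The tools listed per the submitters' processing notes are DESeq2, featureCounts, Subread 1.5.2, STAR 2.5.2b and Trimmomatic 0.36, with the build GRCh38. How strands and multi-mapped reads were handled, and which annotation release was used, is not given in the sources used here, so genes with near-identical copies or overlapping neighbours are uncertain. Of the columns in these tables, 4 of counts that match no sample and 12 that repeat single samples inside the authors' comparisons were not used.

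Here edgeR 4.0.16 (R 4.3.3) was used with filterByExpr (minimum count 10, 15535 genes), TMM scaling and the robust quasi-likelihood F test on all 12 libraries, with arm plus dose as a factor (6 residual degrees of freedom), or a slope on log10 dose per arm (4). The Benjamini-Hochberg adjustment covered every gene tested, with a threshold of 0.05. Values after ± are SE. Log2 CPM of single libraries used a prior count of 2. Labels give 1 library per condition, so the 3 doses stand in for replicates, and a p-value reflects only how these libraries vary, possibly for technical reasons. Depth ran from 23593973 to 36581754 counts. The limit of 3 counts covers counting error only. GC content came from the longest GENCODE 29 transcript (88.1% of tested genes), coordinates from GENCODE 29 and promoters from RefSeq. The fits were also run on simulated counts with known changes, and the outcome is not given here. The simulated libraries had no shift by gene length, GC content or marker balance, so they do not bear on such shifts.

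The comparison, the gene lists and the rule for named genes were chosen with earlier results of these data known. Named were LAG3, PDCD1, CD274, IL2, IFNG, CD69 and EGR1, the 12 largest called rises and falls of at least 5 CPM with groups that do not overlap, the 6 smallest p, up to 4 called members of each list by p, and, in a list with none, the one of smallest p. Some genes were described outside this rule, among them those called by dose slope, NR4A1, FOS, MYC, HLA-DRA and MT-CO1. Alternatives were other models, scalings and filters, DESeq2 1.42.0, offsets, the marker balance and leaving out libraries.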

Additional observations from a re-analysis of the deposited data

Results flagged for a closer look

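For 11 genes the anti-LAG3 minus isotype difference itself changed with dose, tested as a difference of slopes (log2 units per 10-fold dose, edgeR's quasi-likelihood test, adjusted p under 0.05). The slope was 0.82 for EGR1, 0.66 for CD69, 0.71 for IER3, 1.23 for EGR3, 0.33 for DUSP2 and 1.82 for CRTAM. It was 0.41 for CASC15, 0.32 for TRBV12-3 and 0.31 for PRKCH, and -0.36 for PPDPF and -0.25 for MAZ. Groups of 3 libraries are too small for a check of single outlying libraries.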

How the results depend on the processing

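The count of genes changed by arm mean was 1560. It moved by more than 1.5 times with a slope per arm (2568), the marker covariate (84), GC content and length offsets (877), a minimum fold of 1.2 (0), without both libraries at 0.1 µg/ml (132) or at 0.01 µg/ml (990), and with offsets and covariate together (2, chosen after seeing the data, where the value of BCL2L11 turned from -0.17 to 0.00). Leaving out 1 library gave 436 to 2017. The count by dose slope was 11, with 43 in the 6 libraries alone, 50 with the covariate, and 1 to 17 without 1 library. The marker balance differed by 0.197 between arms and by 0.279 with the median of the markers. Of 106 named genes called, 34 were not called with the offsets, 88 with the covariate and 2 with DESeq2, and 47 were called in each fit without 1 library. Of 616 list medians under the alternatives, 65 moved by at least their SD over doses. Depth limits LAG3, IL2 and IFNG. No paired analysis was possible because the labels give no replicate numbers to pair on, other than matching by dose. With dose as a block in the 6 libraries alone the count was 2127, 1080 higher and 1047 lower.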
